A study of Rattus norvegicus with 25 samples.

Results

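The septins analysed here were Sept2, Sept3, Sept4, Sept5, Sept6, Sept7, Sept8, Sept9 and Sept11, 9 of the 26312 gene identifiers quantified in the basolateral amygdala (BLA) and the dentate gyrus (DG) of adult male rats. They were selected by gene name, because Sept5 is among the genes named by the study for a difference between stress groups in the DG. Sept5 in the DG is therefore described by its values and fold changes without a test, and member counts in the DG are over the other 8 genes. Each member matched 1 gene identifier, and all 9 passed the filter on low counts in both regions.

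The rats were wild-type Sprague-Dawley males. Stressed animals underwent 3 h of immobilization with exposure to predator scent and were then tested for anxiety-like behavior, and controls went through the same tests without the stressor. Stressed animals were housed apart from controls for some nights, which cannot be told apart from the stressor. Tissue was taken on day 9. Sequenced stressed animals came from the ends of the composite behavior score, stress-low animals with scores of 0 to 2 and stress-high animals with scores of 13 to 15, while control animals had scores of 0 to 6. RNA came from tissue punches of the left hemisphere, with 1 library per animal and region, so replicates were separate animals. There were 13 BLA libraries (7 control, 3 stress-low, 3 stress-high) and 12 DG libraries (6, 3 and 3) from 14 animals, 11 of which gave both regions. Library names mark each control as low or high, and these were pooled into the control group. As the stress groups were defined by later behavior, group and behavior cannot be told apart, and all 3 stress-high animals carry numbers up to 20 while the stress-low animals carry higher ones.

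Total expected counts per library ranged from 12709493 to 22801247 in the BLA and from 11656439 to 19477932 in the DG. A control library stood apart on the first principal component in each region (BLA control 2 and DG control 35), and these were left out. The study also set aside 1 sample per region for standing apart, of which the hippocampal RNA had been extracted again. The BLA library of animal 35 has conflicting labels and was used as a control, as its library name gives it. Dentate granule cell markers matched the region labels: Prox1 lay between 63.0 and 95.5 TPM (RSEM's length-scaled share of transcripts) in the DG and between 2.03 and 2.93 TPM in the BLA, and C1ql2 between 284.5 and 504.0 TPM against 1.85 to 4.28 TPM. Neither gene of the BLA list was higher in the BLA. Rspo2 had 9.04 to 14.8 TPM in the BLA and 12.5 to 23.9 TPM in the DG. Slc17a7 had 817 to 1184 TPM in the BLA and 1575 to 1996 TPM in the DG. The 4 striatal neuron markers summed to 23.1 to 75.8 TPM in BLA controls. Their sums were 23.0 to 84.5 TPM in BLA stress-low and 31.4 to 45.5 TPM in BLA stress-high animals. Whether BLA punches differed in content was not tested. RSEM's effective lengths fell short of gene lengths by 50 bases for BLA libraries and by 261 to 274 bases for DG ones. Whether this came from how the libraries were made, read or quantified was not tested. It cannot be told apart from region, so septin levels are compared within a region only.

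Septins are GTP-binding proteins of the cytoskeleton that join into rod-shaped complexes of several family members and polymerise into filaments and rings at membranes. Members of the SEPT2, SEPT3 and SEPT6 subgroups combine with SEPT7, which has no close relative and is a core subunit of the complexes. In the brain septins are found at presynaptic terminals, at the base of dendritic spines and in the myelin made by oligodendrocytes. Sept5 is the member best known from presynaptic terminals, where it binds syntaxin and synaptic vesicles.

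Sept5 was the most abundant septin transcript in both regions. Its level was 724 ± 69.7 TPM over the BLA libraries (SD, n = 12) and 955 ± 64.7 TPM over those of the DG (SD, n = 11), and in every library it lay above every other member. Of the summed septin TPM it held 44.3% ± 2.00 and 54.6% ± 1.55, respectively (SD over the same libraries). The other 4 septin genes with a name in the annotation, Sept1, Sept10, Sept12 and Sept14, together held 0.348% and 0.192%. Of these, Sept10 averaged 4.18 TPM (BLA) and 2.15 TPM (DG), Sept1 averaged 1.39 and 1.21 TPM, and Sept12 and Sept14 had 0 in all 11 DG libraries.

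In the BLA the mean levels after Sept5 ran from Sept7 (248 ± 21.2 TPM) and Sept3 (205 ± 14.2 TPM) to Sept4 (118 ± 15.1 TPM), Sept11 (92.0 ± 6.68 TPM) and Sept8 (90.3 ± 7.88 TPM). The lowest levels were those of Sept9 (66.6 ± 5.12 TPM), Sept2 (45.4 ± 2.57 TPM) and Sept6 (37.9 ± 3.38 TPM), all as mean ± SD of 12 libraries. Ranges of neighbours overlapped for Sept7 and Sept3, for Sept4 and Sept11, and for Sept11 and Sept8. Within libraries Sept7 was above Sept3 in 12 of 12, whereas Sept11 was above Sept8 in 7 of 12, so the last pair has no fixed order.

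In the DG the order differed after Sept5. Sept3, a septin of neurons, came next with 360 ± 27.9 TPM, followed by Sept7 with 124 ± 11.7 TPM. Sept8 (81.5 ± 4.28 TPM), Sept4 (72.8 ± 5.50 TPM) and Sept11 (69.7 ± 4.92 TPM) were close to each other, and Sept4 was above Sept11 in 6 of 11 libraries. Sept2 had 41.0 ± 2.56 TPM, and Sept9 (20.5 ± 1.16 TPM) and Sept6 (19.9 ± 2.21 TPM) were lowest, with Sept9 above Sept6 in 6 of 11 libraries. In the plot of levels by library the order of Sept3 and Sept7 is reversed between the regions, with Sept7 above Sept3 in all 12 BLA libraries and below it in all 11 DG libraries. The regions also differ in effective lengths, and Sept7 reads were divided between gene models, as given below. The part of either in this order was not tested.

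**Figure D1:**
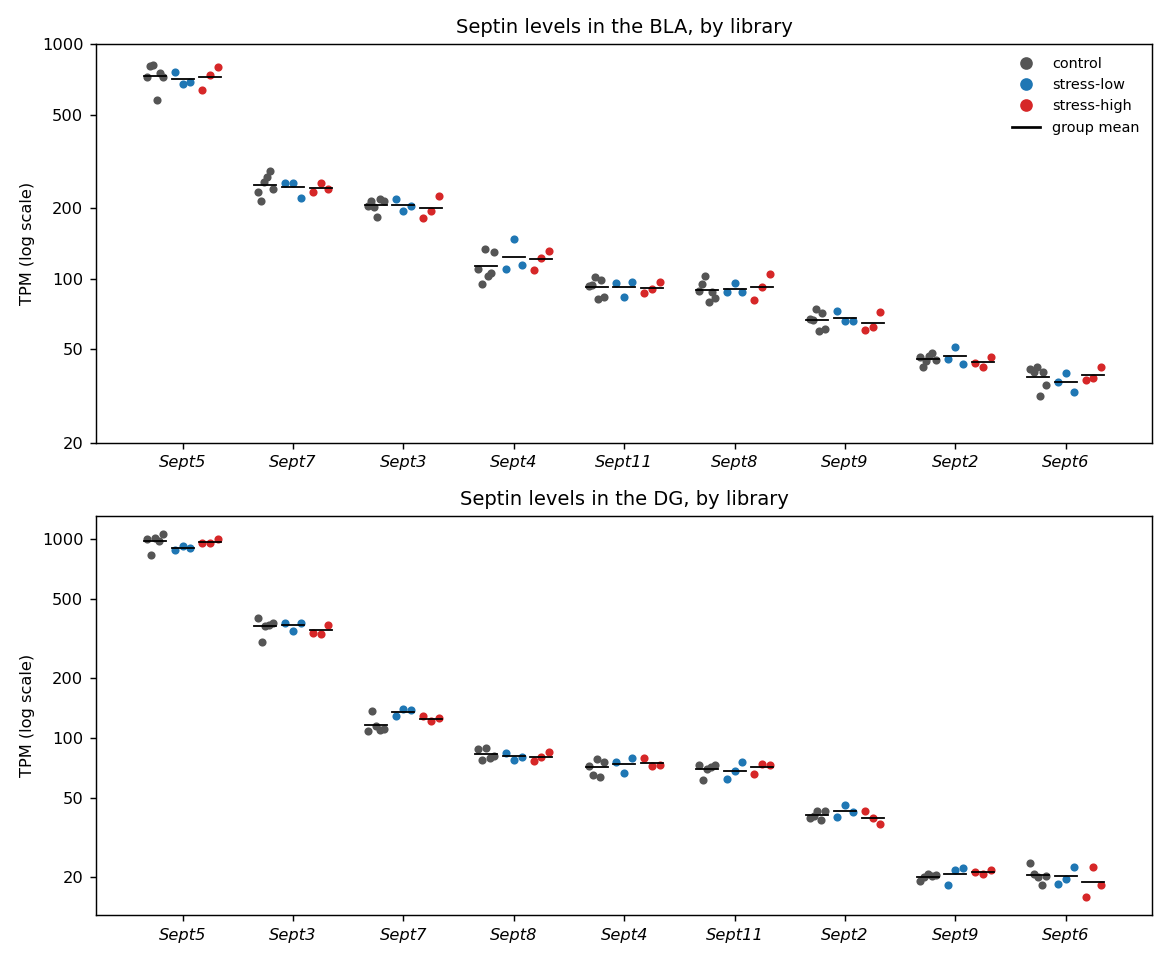
TPM of the 9 septins on a log axis in the BLA (12 libraries) and the DG (11 libraries), ordered by mean level, with 1 point per library coloured by group and a bar at each group mean. Sept5 stands above the other members in every library (at least 579 TPM for BLA, 832 TPM for DG), and the 3 groups of most members overlap.

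Variation between animals of a group was close to that of other genes. The median SD within groups on the log2(TPM + 1) scale was 0.13 over the members and 0.15 over 11156 genes with a mean of at least 5 TPM in the BLA, and 0.10 over the members and 0.12 over 10911 genes in the DG. Sept4 varied most in the BLA, with a coefficient of variation of 12.9%, and Sept6 varied most in the DG, with 11.1%. Single animals were at the end of the range for several members. BLA control animal 28 had the lowest value of Sept5, Sept6, Sept8, Sept9 and Sept11, and DG control animal 14 had the lowest value of Sept3, Sept5 and Sept11.

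The DG is the region for which Sept5 was named. It had 884, 906 and 927 TPM in stress-low animals and 953, 956 and 1005 TPM in stress-high animals. Control animals had 832, 978, 997, 1013 and 1057 TPM. Values of the stress-low and stress-high groups did not overlap, as in 8.59% of all genes with a mean of at least 1 TPM, from which nothing is read for a gene that DG differences chose. The control group covered both. Stress-high animals were higher than stress-low animals by 0.12 on the log2 scale (SE 0.06), a ratio of mean TPM of 1.07, and this difference is given without a test because DG differences chose the gene. It was 0.11 to 0.13 on leaving out single libraries and 0.10 to 0.21 under the other alternatives, with 0.21 from the fit with animal number above 20 as a covariate.

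Against controls, Sept5 in the DG differed by -0.10 (SE 0.05) in stress-low animals and by 0.03 (SE 0.05) in stress-high animals, again without a test and with the same control libraries in both. Its share of the summed septin TPM was 52.7% ± 1.21 in stress-low (n = 3), 55.4% ± 0.022 in stress-high (n = 3) and 55.3% ± 1.25 in control animals (n = 5). The left-out DG library of animal 35 had 884 TPM, inside the range of the others. Total expected counts were higher in each DG stress-high library (16201792 to 19477932) than in each stress-low library (11656439 to 15547038), and the part of depth in the Sept5 difference was not tested.

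In the BLA, which its selection did not use, Sept5 had 675, 692 and 761 TPM in stress-low animals, 639, 738 and 795 TPM in stress-high animals and between 579 and 812 TPM in the 6 controls (median 737 TPM). The 3 groups overlapped. Stress-high over stress-low gave a log2 fold change of 0.07 with a 95% interval of -0.12 to 0.27 (edgeR, adjusted p = 1).

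**Figure D2:**
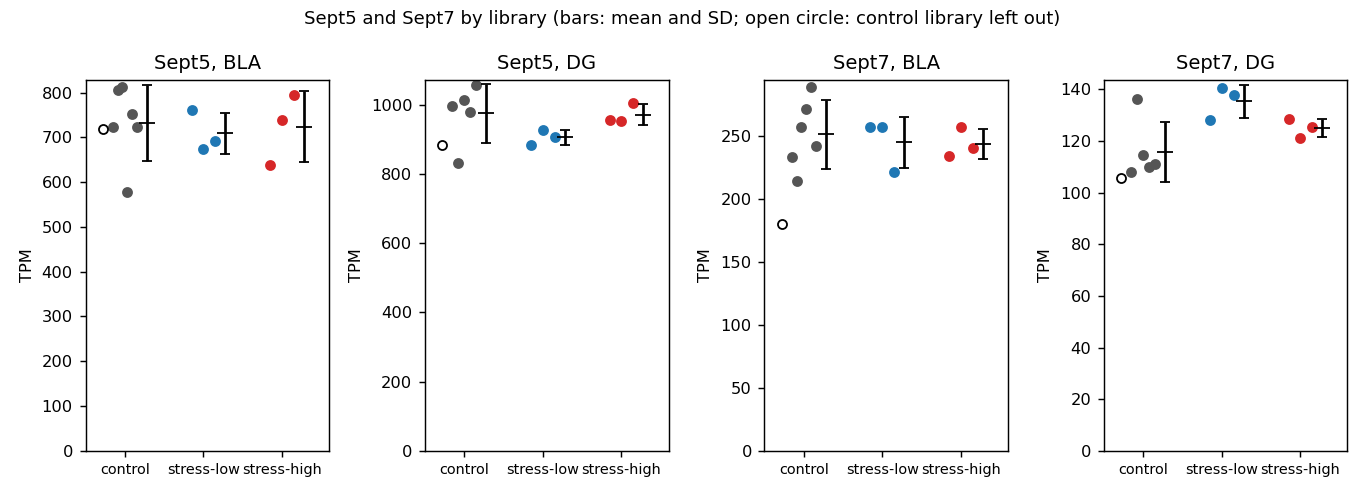
TPM of Sept5 and Sept7 in each library of the BLA and the DG by group, on axes that start at 0, with the mean and SD of each group beside the points and the left-out control library as an open circle. In the DG the Sept5 values of stress-low animals (884 to 927 TPM) lie under those of stress-high animals (953 to 1005 TPM), and Sept7 is at 128 to 140 TPM in stress-low animals, where 4 of 5 controls are at 108 to 115 TPM.

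Gp1bb encodes a subunit of the platelet receptor for von Willebrand factor and lies next to Sept5 on the genome. In the RefSeq annotation of the GRCr8 build the Gp1bb gene lies inside the span of Septin5, but the counts were made on Rn5, whose models of these genes were not examined. Whether reads of 1 gene were counted for the other was not tested, so Gp1bb levels are uncertain. Expected counts of Sept5 were whole (to within 0.005) in each of the 12 DG libraries. In the DG, Gp1bb had 48.0, 51.5 and 54.2 TPM in stress-low animals and 56.0, 61.5 and 62.5 TPM in stress-high animals. Controls lay between 46.2 and 78.6 TPM. Gp1bb was lower in stress-low animals than in controls at an unadjusted p of 0.00778 in edgeR, with a log2 fold change of -0.39 (SE 0.13), but its adjusted p was 0.718. As reads may be shared with Sept5, which DG differences chose, this p may not be free of that choice. Nothing is read from it.

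Across the 11 DG libraries, log2(TPM + 1) of Sept5 and Gp1bb moved together, with a Pearson r of 0.92 and a Spearman rho of 0.95. Without the 2 libraries farthest from the median of Gp1bb r was 0.87, and for deviations from group means it was 0.93. In the 12 BLA libraries r was 0.55 and rho 0.57. These values are a description with no test, since this pair was chosen after its values were seen and Sept5 was chosen for the DG. The relation depended on the left-out library: with animal 35, in which Gp1bb had 106.7 TPM, r over 12 DG libraries was 0.41. Gp1bb stood at 5.43% to 7.47% of the Sept5 TPM in the 11 DG libraries and at 12.1% in the left-out one.

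**Figure D3:**
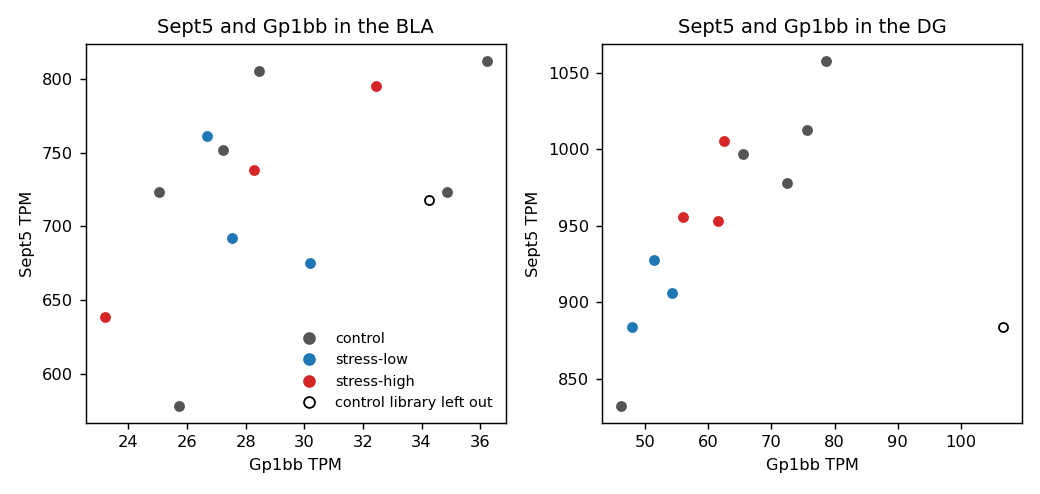
Sept5 TPM against Gp1bb TPM, 1 point per library coloured by group, in the BLA and the DG, with the left-out control library as an open circle. In the DG the 11 libraries lie along a line (Pearson r of 0.92 on the log2 scale), and the left-out library lies off it at 106.7 TPM of Gp1bb.

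Of the 8 members tested in the DG, 1 had an unadjusted p under 0.05 between control and stress-low animals, against 6.90% of all genes tested in that comparison, and 0 passed at an adjusted p under 0.05. That member was Sept7, the core subunit of septin complexes. It had 128, 138 and 140 TPM in stress-low animals and 108, 110, 111, 115 and 136 TPM in controls. Stress-low values lay above those of 4 controls and overlapped with control animal 14. The log2 fold change was 0.23 (SE 0.09) with a 95% interval of 0.05 to 0.42, an unadjusted edgeR p of 0.0171 and an adjusted p of 0.718. The count is near that background and is no result about the family.

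The Sept7 value depended on single animals. Without control animal 14 the log2 fold change was 0.33 at an unadjusted edgeR p of 2.8e-05 (adjusted p = 0.096), and without stress-low animal 33 it was 0.21 at an unadjusted p of 0.0619 (adjusted p = 0.982). In stress-high animals Sept7 had 121, 125 and 129 TPM, and the log2 fold change over the same controls was 0.13 (SE 0.09, edgeR, adjusted p = 1). Without animal 14 that value was 0.21 at an unadjusted edgeR p of 0.00107 (adjusted p = 1). Stress-high over stress-low gave -0.11 with an interval of -0.32 to 0.10 (edgeR, adjusted p = 1).

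In the BLA the Sept7 values of stress-low animals (221, 256 and 257 TPM) lay inside those of controls (214 to 289 TPM, median 249 TPM). The log2 fold change was -0.08 with an interval of -0.27 to 0.11 (edgeR, adjusted p = 1). The test of the difference between the regions gave 0.30 (SE 0.13) at an unadjusted edgeR p of 0.0288 (adjusted p = 1), which made Sept7 1 of 8 members against 3.21% of all genes. With the animal as a block the difference was 0.27 at an unadjusted edgeR p of 0.126. Of the 11 animals with both regions, animals 2 and 35 each had 1 library left out of that fit. Its stress-low animals with both regions were 22 and 34. With every library and no block the difference was 0.19 at an unadjusted edgeR p of 0.281 (adjusted p = 1 in both fits). On leaving out single libraries it was 0.25 (without BLA control animal 28) to 0.38 (without DG control animal 14). The level of Sept7 is uncertain, as its expected count was not whole (to within 0.005) in any of the 25 libraries, which marks reads that RSEM divided between gene models. RefSeq names 5 genes as copies of Septin7. In the 12 DG libraries the other members had whole counts, except Sept2 in 1 library, whereas in the BLA each member had counts that were not whole in 4 to 13 libraries.

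Promoters of 6 of the 9 members were matched by symbol in RefSeq (GRCr8 build). The sequences below are the 250 bases before the start of Septin7, shown because Sept7 had the only unadjusted p under 0.05, and before the first and second starts listed for Septin4, shown because Sept4 moved with myelin markers as described further on. Capitals mark the GC box GGGCGG or its reverse complement CCGCCC.
Septin7, chr8:31995348-31995597, plus strand: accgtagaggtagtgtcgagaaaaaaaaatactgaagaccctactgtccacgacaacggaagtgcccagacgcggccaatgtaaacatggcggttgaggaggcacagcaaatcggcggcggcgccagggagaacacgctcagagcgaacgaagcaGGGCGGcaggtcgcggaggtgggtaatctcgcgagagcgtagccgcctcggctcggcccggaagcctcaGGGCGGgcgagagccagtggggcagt
Septin4 first start, chr10:72863764-72864013, plus strand: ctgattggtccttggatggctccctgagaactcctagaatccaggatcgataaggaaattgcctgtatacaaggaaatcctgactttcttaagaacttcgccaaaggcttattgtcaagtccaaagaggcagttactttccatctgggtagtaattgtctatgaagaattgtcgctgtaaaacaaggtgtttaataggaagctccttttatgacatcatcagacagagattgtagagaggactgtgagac
Septin4 second start, chr10:72875716-72875965, plus strand: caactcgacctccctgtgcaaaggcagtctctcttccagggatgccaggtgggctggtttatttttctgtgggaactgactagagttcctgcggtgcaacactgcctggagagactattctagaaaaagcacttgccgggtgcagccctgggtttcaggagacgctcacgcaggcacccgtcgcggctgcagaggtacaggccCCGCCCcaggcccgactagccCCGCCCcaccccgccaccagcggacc
The Septin7 stretch holds 2 GC boxes and 26 CpG sites. Those of Septin4 hold 0 boxes with 3 CpG sites and 2 boxes with 13 CpG sites, so the alternative starts of this gene differ in composition. Of the 11 starts listed for the 6 members, 9 have a GC box in these 250 bases, as do 30.5% of the 33469 starts in the table, whose median is 5 CpG sites. The 11 are not independent, as the Septin4 stretches that begin at 72875716 and 72875718 overlap almost fully and are both counted. A match is a description of these letters and not a binding site.

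Members of the SEPT2 subgroup other than Sept5 showed small differences. Sept2, known from cell division and from myelin, had log2 fold changes in the DG of 0.08 (stress-low over control), -0.02 (stress-high over control) and -0.10 (stress-high over stress-low), each with an SE of 0.07 to 0.08. Sept4, abundant in glia, was at 0.07, 0.10 and 0.03 in the DG and at 0.09, 0.10 and 0.01 in the BLA, with SE values of 0.08 to 0.11. Its 3 BLA stress-low values were 110, 115 and 147 TPM and those of controls ran from 95.3 to 133 TPM, so that animal 30 alone exceeded the controls.

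In the SEPT3 subgroup, Sept3 differed by at most 0.07 in size on the log2 scale in either region. Sept9, which sits at the centre of the longer septin complexes, had 20.7, 21.0 and 21.6 TPM in DG stress-high animals and 19.0, 19.9, 20.1, 20.4 and 20.7 TPM in controls. Groups did not overlap, with the highest control at 20.69 TPM and the lowest stress-high animal at 20.71 TPM. Sept9 was 1 of 8 members without overlap in this comparison, against 1.47% of all genes with a mean of at least 1 TPM. In TPM the exact permutation p was 0.0357, where 3 against 5 libraries allow no less than 0.0179, and it was 1 after adjustment over the 51 TPM tests of members. The edgeR test gave a log2 fold change of 0.12 (SE 0.07, adjusted p = 1).

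In the other comparisons no tested member was without overlap, 0 of 9 in each of the 3 BLA comparisons (against 1.33%, 0.936% and 5.96% of genes for stress-low over control, stress-high over control and stress-high over stress-low) and 0 of 8 in the DG for stress-low over control (3.71%) and stress-high over stress-low (8.59%). In 3 against 3 libraries the exact p cannot fall under 0.1.

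In the SEPT6 subgroup, Sept6 gave the largest BLA value among members, 0.14 (SE 0.08) for stress-high over stress-low (edgeR, adjusted p = 1), from 33.0, 36.3 and 39.6 TPM to 37.2, 37.6 and 41.9 TPM. The groups overlapped, and controls covered 31.6 to 41.8 TPM. In the DG the same contrast was -0.08 (SE 0.13). Sept8, which binds the vesicle protein VAMP2, lay within 0.07 of 0 in the BLA and within 0.02 in the DG. Sept11, found at dendritic spines and inhibitory synapses, lay within 0.03 of 0 in the BLA and within 0.06 in the DG.

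Across the family, 0 of 9 members had an unadjusted p under 0.05 in the BLA for stress-low over control, stress-high over control and stress-high over stress-low, where 2.75%, 2.57% and 1.98% of the 15230 genes tested did. In the DG, 0 of 8 members did for stress-high over control and for stress-high over stress-low, where 2.19% and 3.12% of the 14080 genes did. For the difference between regions, 0 of 8 did for stress-high over control (1.84% of 15453 genes) and for stress-high over stress-low (2.00%). At an adjusted p under 0.05 the count was 0 for members and for all genes in each comparison. DESeq2 also called 0 of the members. With another test, EBSeq, the study did report genes at an FDR under 0.05 in both regions, Sept5 in the DG among them.

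Median log2 fold changes of the 9 members were -0.03, -0.0069 and 0.03 in the BLA (stress-low over control, stress-high over control, stress-high over stress-low) and, over the 8 tested members, 0.05, 0.01 and -0.04 in the DG, beside medians over all genes of -0.0020, -0.0037, -0.00055, -0.0030, 0.0011 and -0.00017. For stress-low over control in the BLA, 8 of 9 members were below 0 in this fit, with sizes of at most 0.12, whereas the ratio of mean TPM was below 1 for 5 of 9 and above 1 for 4 of 9. The median SE of the members was 0.07 to 0.08 in both regions, smaller than the 0.10 to 0.13 over all genes. The farthest bound of any 95% interval of a tested member was 0.31 (BLA) and 0.42 (DG, Sept7) in size. All 3 comparisons of a region share libraries, so their values are not independent.

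**Figure D4:**
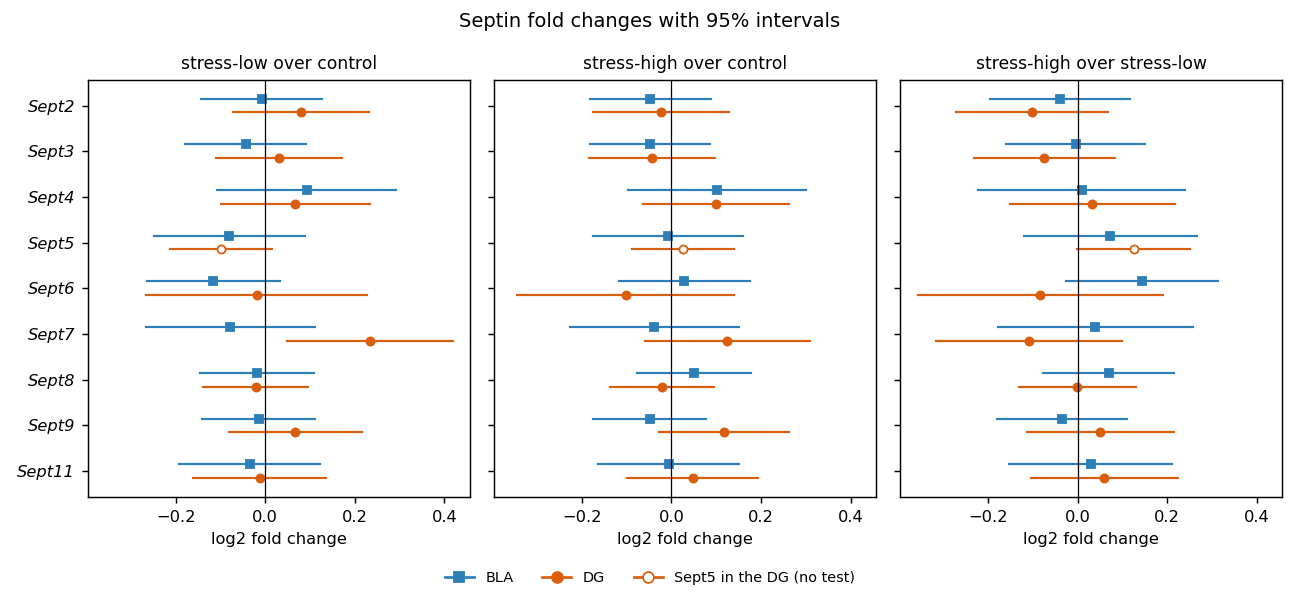
Log2 fold changes of the 9 septins (points) with 95% intervals (lines) from edgeR, for the 3 comparisons, in the BLA (squares) and the DG (circles), with an open circle where Sept5 in the DG was not tested. The interval of Sept7 for stress-low over control in the DG (0.05 to 0.42) is the only one among the tested members that leaves out 0.

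Septin levels were set against marker lists for myelin (7 genes), neurons (6 genes) and astrocytes (6 genes), because a punch holds several cell types. Libraries of all groups were pooled and permuted without regard to group, so differences between groups enter each r. In bulk tissue fewer cells of a type and less RNA per cell cannot be told apart. Of 54 relations over both regions, 8 had an unadjusted permutation p under 0.05 and 3 an adjusted p under 0.05. The adjustment is over all 54, which include 3 of Sept5 in the DG that are described without a p. Sept4 rose with the summed myelin markers over 12 BLA libraries, with a Pearson r of 0.86 (permutation p = 0.00014, adjusted p = 0.00756) and a Spearman rho of 0.85 (permutation p = 0.00107, adjusted p = 0.0289). Without the 2 libraries farthest from the median r was 0.71. Over 11 DG libraries r was 0.66 (permutation p = 0.0252, adjusted p = 0.217), rho was 0.65 (permutation p = 0.0344, adjusted p = 0.372), and r without the 2 farthest libraries was 0.53. With the left-out library of each region included, r was 0.90 (adjusted p = 0.00270) in the BLA and 0.21 (adjusted p = 0.67) in the DG, by the same permutation test.

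The highest myelin sum of the BLA, 4470 TPM, and the highest Sept4 value among the 12 libraries, 147 TPM, were those of stress-low animal 30. The other 11 BLA libraries of the fit had myelin sums of 2473 to 3448 TPM, and the left-out control animal 2 had 4189 TPM. Sums by group overlapped, at 2473 to 3348 TPM in controls, 2876 to 4470 TPM in stress-low and 2944 to 3448 TPM in stress-high animals, with all 7 markers above 1 TPM. Sept2, Sept7 and Sept8 are also known from myelin. For Sept2 r with the BLA myelin sum was 0.56 (permutation p = 0.0603, adjusted p = 0.362), rho was 0.17 (permutation p = 0.588, adjusted p = 0.857), and r without the 2 farthest libraries was -0.44. For Sept7 r with the BLA myelin sum was 0.25 (permutation p = 0.448, adjusted p = 0.815), rho was 0.06 (permutation p = 0.853, adjusted p = 0.95), and r without the 2 farthest libraries was -0.24. For Sept8 r with the BLA myelin sum was 0.23 (permutation p = 0.481, adjusted p = 0.815), rho was 0.36 (permutation p = 0.255, adjusted p = 0.695), and r without the 2 farthest libraries was 0.34. The sign of r for Sept2 and Sept7 therefore rested on those 2 libraries.

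Neuron markers were followed by Sept9 and Sept11 among the BLA libraries. For Sept9 r was 0.82 (permutation p = 0.00182, adjusted p = 0.0418), rho was 0.75 (permutation p = 0.00663, adjusted p = 0.119), and r without the 2 farthest libraries was 0.73. For Sept11 r was 0.81 (permutation p = 0.00232, adjusted p = 0.0418), rho was 0.85 (permutation p = 0.00078, adjusted p = 0.0289), and r without the 2 farthest libraries was 0.68. Among the DG libraries r was 0.10 for Sept9 (permutation p = 0.766, adjusted p = 0.895) and 0.17 for Sept11 (permutation p = 0.621, adjusted p = 0.84), with a rho of 0.19 (permutation p = 0.577, adjusted p = 0.857) and 0.27 (permutation p = 0.419, adjusted p = 0.781). The difference between the regions was not tested. With the left-out BLA library included, r was 0.61 for Sept9 (permutation test, adjusted p = 0.175) and 0.78 for Sept11 (adjusted p = 0.0653). With the left-out DG library included, r was 0.57 for Sept9 (permutation test, adjusted p = 0.219) and 0.71 for Sept11 (adjusted p = 0.175). Sept6 had the next highest relation, with the astrocyte markers of the BLA (r of 0.75, permutation p = 0.00497, adjusted p = 0.0671), a rho of 0.64 (permutation p = 0.0297, adjusted p = 0.372) and an r of 0.48 without the 2 farthest libraries.

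**Figure D5:**
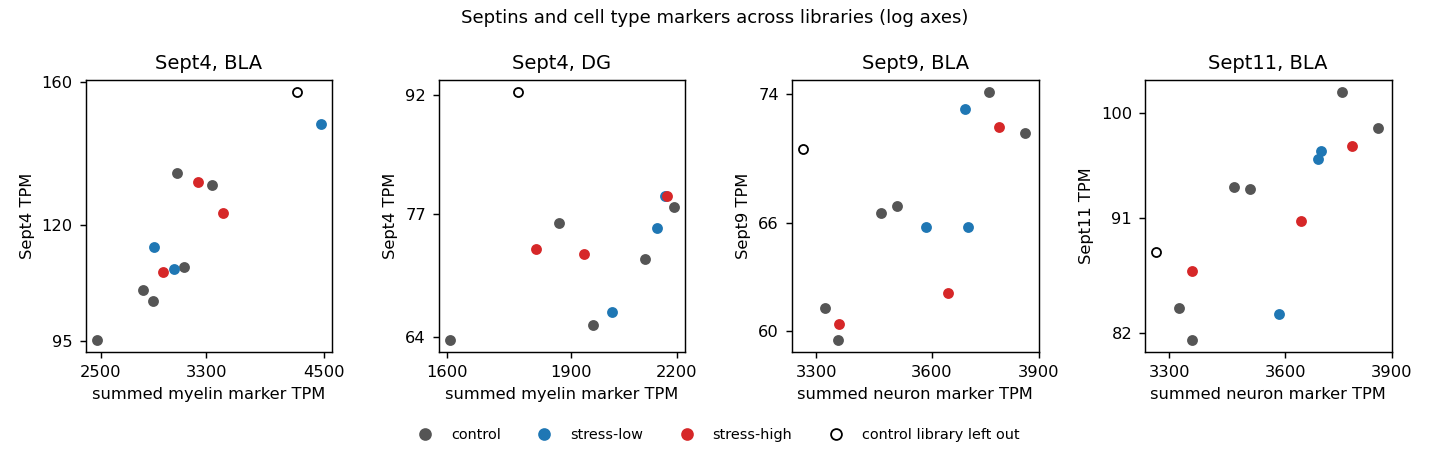
TPM of Sept4 against the summed TPM of 7 myelin markers (BLA, DG) and of Sept9 and Sept11 against that of 6 neuron markers (BLA), on log axes, 1 point per library coloured by group and the left-out control library as an open circle. Sept4 and the myelin sum rise together in the BLA (r of 0.86), with stress-low animal 30 at the upper right.

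Over the BLA libraries Sept5 and the neuron markers had an r of 0.59 (permutation p = 0.0427, adjusted p = 0.288), a rho of 0.54 (permutation p = 0.0748, adjusted p = 0.449), and an r of 0.51 without the 2 farthest libraries. Over the DG libraries Sept5 and the neuron markers had an r of -0.43, a rho of -0.47 and an r of -0.57 without the 2 farthest libraries. The neuron list holds Snap25, which the study also named for stress-low against stress-high in the DG. The part of Snap25 in these DG values was not tested. The genes whose log2(TPM + 1) followed Sept5 most closely were Actg1 (r of 0.95), a cytoplasmic actin, and Syn1 (0.94), a synaptic vesicle phosphoprotein, over 12 BLA libraries. Over 11 DG libraries they were Per1 (0.95), a component of the circadian clock, and Camsap1 (0.95), which binds microtubule minus ends. For Sept4 in the BLA they were Homer2 (0.96) and Ccdc94 (0.95), and for Sept6 in the DG Moap1 (0.89) and Zswim5 (0.87). These are the highest of 11156 values in the BLA and of 10911 in the DG and are given as a description.

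The deposited length of a gene is weighted by the isoforms estimated in a library and could be followed for the 4 members with several annotated transcripts, Sept3, Sept5, Sept7 and Sept9. Sept5, with 3 transcripts, had expected lengths of 1171 to 1203 bases over BLA libraries and 1295 to 1323 bases over DG ones. In the DG they were 1307 to 1316 bases in controls, 1295 to 1320 bases in stress-low and 1314 to 1323 bases in stress-high animals, without a test. Of 21 exact permutation tests of lengths between groups, which include Sept5 in the BLA, 0 gave a p under 0.05. Those of stress-high over stress-low, with 3 against 3 libraries, could not fall under 0.1, so they could not have passed. Sept5 in the BLA was at this limit (exact permutation p = 0.1, adjusted p = 0.75). It had 1189 to 1195 bases in stress-low animals, 1196 to 1203 bases in stress-high animals and 1171 to 1202 bases in controls. The smallest p of the 21 tests was 0.0536 (adjusted p = 0.75) for Sept7 in the DG, where the means were 2461.94 bases in stress-low animals and 2461.97 bases in controls.

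Of 13 genes listed as partners of septins, 12 were found by name and tested in the BLA and 11 in the DG. Cdc42, the small GTPase that acts on septins through the Borg proteins, gave 0.06 and 0.09 (BLA) and 0.19 and 0.07 (DG) for stress-low and stress-high over control (SE 0.07 to 0.09). Stx1a, a syntaxin of the presynaptic membrane, gave -0.15 and 0.07 (BLA, SE 0.11) and -0.23 and 0.02 (DG, SE 0.22 and 0.21). In the BLA 2 of 12 partners were higher in stress-low animals than in controls at an unadjusted p under 0.05, where 2.75% of all genes did in either direction, and 2 of 12 were higher in stress-high animals, against 2.57% of all genes. Cdc42ep5 was in both, with 1.26 and 1.18 (SE 0.44 each, unadjusted edgeR p of 0.0115 and 0.017), and the others were Cdc42ep2 with 0.24 (SE 0.07, unadjusted p of 0.00645) and Cdc42ep1 with 0.24 (SE 0.11, unadjusted p of 0.0479).

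These 3 encode Borg proteins, which bind septins downstream of Cdc42, and the adjusted p of each was 1. The partner list holds the Borg genes Cdc42ep1 to Cdc42ep5, so their place among these genes follows in part from the list. The other Borg genes were not under 0.05 in the BLA for stress-low and stress-high over control. Their unadjusted edgeR p was 0.125 and 0.527 for Cdc42ep3 and 0.963 and 0.118 for Cdc42ep4. Cdc42ep5 was low, at 4.79, 5.27 and 5.90 TPM in stress-low animals, 4.09, 4.86 and 5.86 TPM in stress-high animals and 0.88 to 5.11 TPM in the 6 controls, from 4 to 29 expected counts per library. The same controls stand in both comparisons, and the left-out control had 4.33 TPM. In the DG 1 of 11 partners, Gp1bb, was lower in stress-low animals at an unadjusted p under 0.05, against 6.90% of all genes, and 0 were higher. Gp1bb is on the list as the gene beside Sept5, not as a binding partner. Its DG level moved with that of Sept5, so this count may not be free of the choice of Sept5. In the remaining comparisons within a region 0 partners were under 0.05. At an adjusted p under 0.05 the count was 0 in each comparison.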

How the data were processed

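RNA from left-hemisphere BLA and DG punches was sequenced as 1 library per animal and region. The authors aligned reads to Rn5 with STAR 2.6.0a and quantified genes with RSEM 1.3.1 on Ensembl build 75. Per the file headers the values are RSEM's expected count per gene, a deposited TPM score (length-scaled, with libraries stacked in 1 column), and 2 gene lengths in bases. RSEM divides reads between similar genes. The deposited FPKM column was not used.

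After rounding, expected counts entered edgeR 4.0.16 (R 4.3.3) by quasi-likelihood with TMM, filterByExpr with a minimum count of 10 and 3 group means per region in 1 fit, with Benjamini-Hochberg adjustment over all genes and a threshold of 0.05. Region differences used 6 region and group means. The left-out library of a region was the control farthest from the median on PC1 of log2(TPM + 1) (genes with a mean of at least 1 TPM), scoring 46.4 (BLA) and 56.0 (DG) against at most 17.3 in size for the others. TPM and lengths were tested by exact two-sided permutation, and correlations by two-sided permutation with 100000 resamples, adjusted over the 54 marker relations. Groups came from the labels. Named genes were the members, the other septins by level, Cdc42, Stx1a, Gp1bb, partners with an unadjusted p under 0.05, and the 2 genes most like Sept5 and the most variable member. Of the genes this rule names, 1 is not reported here. The members and lists were chosen with earlier results of these data known. Scripts were tested on simulated counts. Alternatives were DESeq2 1.42.0, limma 3.58.1, other size factors, filters, pseudocounts, blocks and left-out libraries. The EBSeq package of the study was not used here.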

Additional observations from a re-analysis of the deposited data

Results flagged for a closer look

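In the DG, 2 values of control animal 14 stood apart from the other 4 controls, with a gap to the nearest value above 0.71 of the whole range (Dixon's criterion). For Sept7 this animal had 136 TPM, where the others had 108 to 115 TPM, and for Sept11 it had 61.05 TPM, where the others had 69.8 to 73.2 TPM. These were 2 flags among 18 groups of controls examined, and chance gives about 1 in 20. Without animal 14 the Sept7 fold change of stress-low over control in the DG was 0.33 in place of 0.23 on the log2 scale. The stress-low over control fold change of Sept7 was higher in the DG than in the BLA by 0.298 (SE 0.13), at an unadjusted edgeR p of 0.0288, which failed the adjustment over all genes (adjusted p = 1).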

How the results depend on the processing

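The count of members under an unadjusted 0.05 was 0 in the 3 BLA comparisons, and 1 (Sept6, without control animal 28) was the highest value on leaving out 1 library, in stress-low over control. In the DG the count for stress-low over control, 1, ranged from 0 (without stress-low animal 33) to 1 on leaving out single libraries, and that for stress-high over control, 0, ranged from 0 to 1 (Sept7 without control animal 14, Sept6 without stress-high animal 19). For the region difference, stress-low over control gave 1, with 0 when all libraries entered, 0 with the animal as a replicate block, and 0 to 1 on leaving out libraries (0 without BLA stress-low animal 34, DG stress-low animals 33 or 34 or DG control animal 2). Stress-high over control, 0, gave 0 to 2 (Sept9 without BLA stress-low animal 22 or 30, DG stress-low animal 22 or BLA control animal 28 or 35, Sept6 without DG stress-high animal 19, Sept7 and Sept9 without DG control animal 14) and stress-high over stress-low 0 to 1 (Sept6 without DG stress-high animal 19). Leaving out control libraries for the region difference was chosen after seeing the data. The cause was not tested. At an adjusted p the count was 0 under each alternative.

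Of 81 fold changes of members, 49 changed sign under at least 1 alternative, 20 of 27 in the BLA, 15 of 27 in the DG and 14 of 27 for the region difference. Most of these lay within 1 SE of 0. Of the 20 fold changes farther from 0 than 1 SE, 3 changed sign: Sept6 (-0.0065) and Sept8 (-0.0086) for stress-high over stress-low in the BLA with animal number above 20 as a covariate, and Sept4 (-0.0292) for stress-high over control in the DG with all libraries. With all libraries the number of marker relations under an adjusted 0.05 was 1 in place of 3, and the relation of Sept5 with Gp1bb in the DG, an alternative chosen after seeing the data, was 0.41. Libraries with the same replicate number in the labels did not deviate together (median correlation -0.03 for BLA, -0.05 for DG). A pairing that leaves no shared shift over many genes would not show in these values, so whether the numbers pair animals stayed undecided. With a replicate block Sept7 in the DG was 0.24 for stress-low over control (edgeR, adjusted p = 0.829), with member counts of 0 for each BLA comparison and of 1, 0 and 0 for the DG. Over all genes the adjusted count of 0 became at most 3 (DESeq2, DG stress-high over stress-low). With limma on log2(TPM + 1) the share of genes that were higher among those under an unadjusted 0.05 was 71.0% in place of 42.0% for stress-low over control, 28.0% in place of 50.3% for stress-high over stress-low (BLA), and 37.5% in place of 48.9% for stress-high over control (DG). With 3 stressed animals per group, the median SE of members was 0.07 to 0.08 within a region and 0.10 to 0.11 for the region difference.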

Other observations

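The control libraries that were left out differed from the rest in their septins. In the DG, animal 35 lay below the range of the other 11 libraries for 6 members (Sept2, Sept3, Sept7, Sept8, Sept9 and Sept11), above it for Sept4 (92.5 TPM against at most 79.1 TPM) and inside it for Sept5 and Sept6. Sept3 was at 241 TPM there, where the lowest other library had 303 TPM, and Sept8 at 58.8 TPM, where the lowest had 76.1 TPM. In the BLA, animal 2 lay below the range of the other 12 libraries for Sept2 and Sept7 (180 TPM against at least 214 TPM), above it for Sept3 (246 TPM) and Sept4 (157 TPM), and inside it for the other 5 members. Its myelin sum was 4189 TPM.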
